A study of Caenorhabditis elegans with 4 samples.

Results

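Chromosome V of Caenorhabditis elegans carried 1416 of the 6659 ZIM-3 peaks that the authors deposited for the series as a whole (the series-wide list). They were taken as every entry of that list on V, with no choice by value. The peaks come from chromatin immunoprecipitation and sequencing (ChIP-seq) with an affinity-purified rabbit antibody against ZIM-3. The 2 ChIP samples, replicates 1 and 2, were hermaphrodites of the genotype fem-2(b245)III kept at 20 °C. Their stage is labelled young adult with a germline, and the growth protocol speaks of gravid worms raised in batches. The 2 input samples share that genotype, have no peak list here and entered no comparison. ChIP and input samples alike were fixed with 1% formaldehyde for 10 min. No wild-type or zim-3 mutant animals, no other antibody and no second strain were among the samples, so every value below comes from this mutant background. Whether each replicate had a culture of its own is not stated in the labels.

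ZIM-3 belongs to a small family of zinc finger proteins that work in the meiotic germline. Each member binds special regions towards an end of its chromosomes, the pairing centers, through which homologous chromosomes find each other and start synapsis. In C. elegans ZIM-3 serves chromosomes I and IV, ZIM-2 serves V, ZIM-1 serves II and III, and HIM-8 serves X. Chromosome V is therefore not a chromosome that ZIM-3 is known to pair. The gene fem-2 acts in sex determination, where it promotes male development, including the making of sperm. The chromosomes of this worm have no single centromere. Their central parts are rich in conserved genes, while their arms hold more repeated sequence, recombine more often and lie more often at the nuclear periphery.

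A peak is a stretch of genome that the authors' caller, named as MACS in the replicate lists and MACS v2 in the series-wide list, reported as bound. Its score is the authors' own and its scale is not named, so scores are read within a list. The list of replicate 1 held 1203 peaks on V and that of replicate 2 held 220, and the depth of the libraries is unknown. A peak missing from replicate 2 therefore does not show that binding was absent. Coordinates are on WormBase WS220 and count from 1. Neither a genome nor an annotation of that build was used here, so sites are given by position and not by gene. Peaks of a list share their libraries and are not replicates, and no test of a difference was run. Intervals beside shares are Wilson 95% intervals and cover counting error only.

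The strongest site of V lay in the middle of the chromosome. The peak at V 10605573 to 10612525 had a series-wide score of 96.3, was 6953 bp wide and sat at 50.7% of the length of V. It ranked 20 among the nuclear peaks. Replicate 1 gave a single peak of 6928 bp there and replicate 2 a single peak of 6971 bp, both at a score of 3100, the value at which many peaks of these lists are tied. The replicates thus outlined nearly the same stretch. The next site of the center, V 11273685 to 11274566, scored 87.4 over 882 bp, with 3100 in replicate 1 and 614 in replicate 2. The third, V 8699227 to 8702904, scored 67.4 over 3678 bp.

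The right arm held 6 of the 10 highest peaks of V, against 2 in the left arm and 2 in the center. In it, 4 of the 25 highest peaks formed a single group with 1 weaker neighbour, from V 17115339 to V 17133560. That group spanned 18.2 kb at 81.8% of the length, of which series-wide peaks took up 73.3%, peaks of replicate 1 80.4% and those of replicate 2 73.3%. Its members were V 17119866 to 17126685 (score 93.0, 6820 bp), V 17127933 to 17132218 (score 92.3, 4286 bp), V 17115339 to 17116140 (score 90.1, 802 bp) and V 17117711 to 17118963 (score 74.4, 1253 bp). Replicate 1 joined the leading pair into a peak of 12574 bp, its widest on V, where replicate 2 called them as separate peaks of 6816 and 4442 bp. At the third member replicate 1 gave 1461 and replicate 2 gave 2602, and the 2 lists differed by 4 bp in its width. Both replicates therefore called this group, with boundaries that differed by how neighbours were joined. Of the 25 highest peaks of V, 7 had their midpoints between 17 and 18 Mb.

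The remaining right-arm sites among the 10 highest were V 17629130 to 17629735 with a score of 87.1, V 18727552 to 18728638 with 84.5 and V 14766561 to 14769801 with 84.0. At the first of these, replicate 1 gave 2529 and replicate 2 gave 294. In the left arm the leading peaks were V 5283151 to 5285898 (score 89.1, 2748 bp) and V 4333130 to 4336701 (score 84.4, 3572 bp), both at 3100 in each replicate. The third left-arm peak, V 264941 to 267291, lay at 1.27% of the length and scored 78.6, with 539 in replicate 1 and 3100 in replicate 2. All 10 leading peaks of V overlapped peaks of both replicates, and so did all 25 highest. Of the 100 highest, 69 did, and these 100 were spread over the chromosome with 38 in the left arm, 26 in the center and 36 in the right arm.

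**Figure D1:**
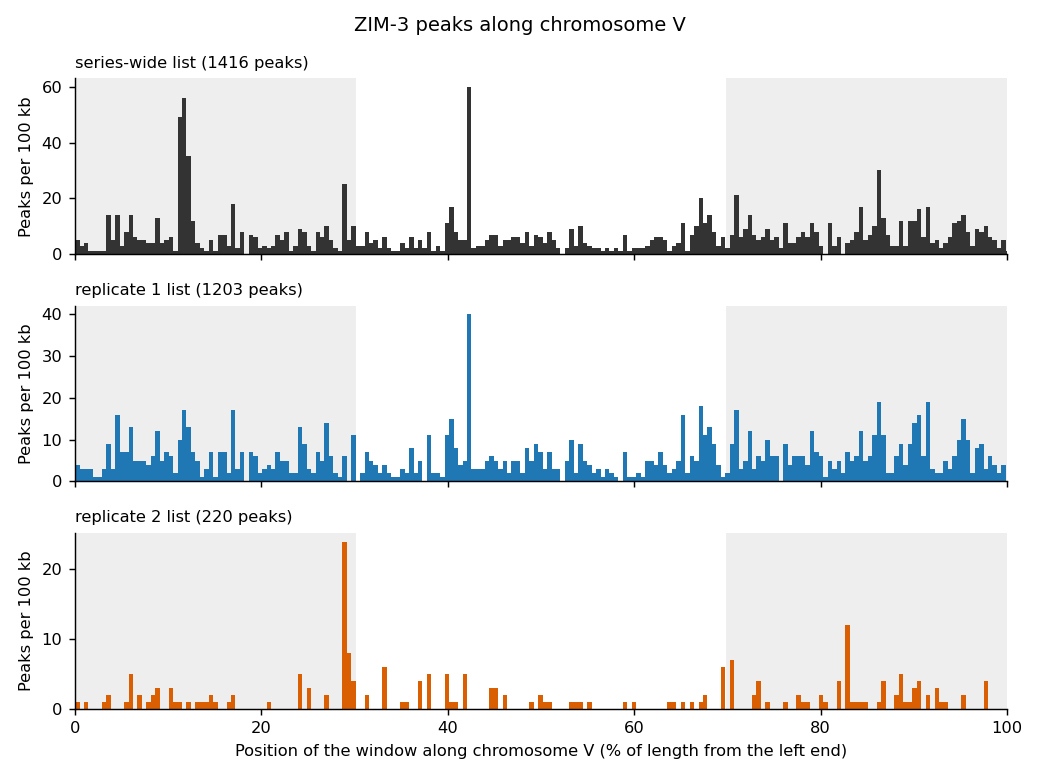
Number of peaks per 100 kb window along chromosome V in the series-wide list and in the lists of replicates 1 and 2; the x axis is position in percent of the length from the left end, the grey areas are the arms, and each panel has its own y axis. The tallest series-wide window has 60 peaks at 42.3% of the length, and 3 neighbouring windows near 11.7% have 49, 56 and 35.

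Peaks were more frequent in the arms of V than in its center, by a smaller margin than on the chromosomes set beside it in the series-wide list. The arms, taken as the outer 30% of the length on either side, held 952 peaks of V, or 67.2% (64.7% to 69.6%), where 60% of the length lies. The share over all nuclear series-wide peaks was 73.3%. The left arm held 469 peaks, the center 464 and the right arm 483. In density this was 75.8 peaks per Mb in the arms against 55.4 in the center, a ratio of 1.37. The same ratio was 2.37 on II, 1.77 on III, 1.84 on IV and 1.88 on X. The centers of II, III and X had 33.1, 42.4 and 29.8 peaks per Mb, below that of V, while the center of IV had 56.4.

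The order of the chromosomes was not the same in both replicates. In replicate 1 the arms of V held 64.2% of its peaks (61.4% to 66.8%), and II, III, IV and X held from 72.7% to 77.6% of theirs. In replicate 2 they held 70.0% (63.6% to 75.7%), against 72.6% on II, 63.3% on III, 60.5% on IV and 78.2% on X. V thus stood below the other 4 chromosomes in replicate 1 and in the middle of them in replicate 2, where fewer peaks leave wide intervals. When series-wide peaks within 10 kb of each other were merged and counted as 1, the arm share of V was 62.4% (57.9% to 66.8%), an interval that holds the 60% of length. By the same count II had 68.8%, III 71.1%, IV 68.1% and X 65.8%. Among peaks found in both replicates the share was 65.1% on V, 68.7% on II, 65.2% on III, 72.4% on IV and 76.5% on X, with intervals that overlap that of V.

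**Figure D2:**
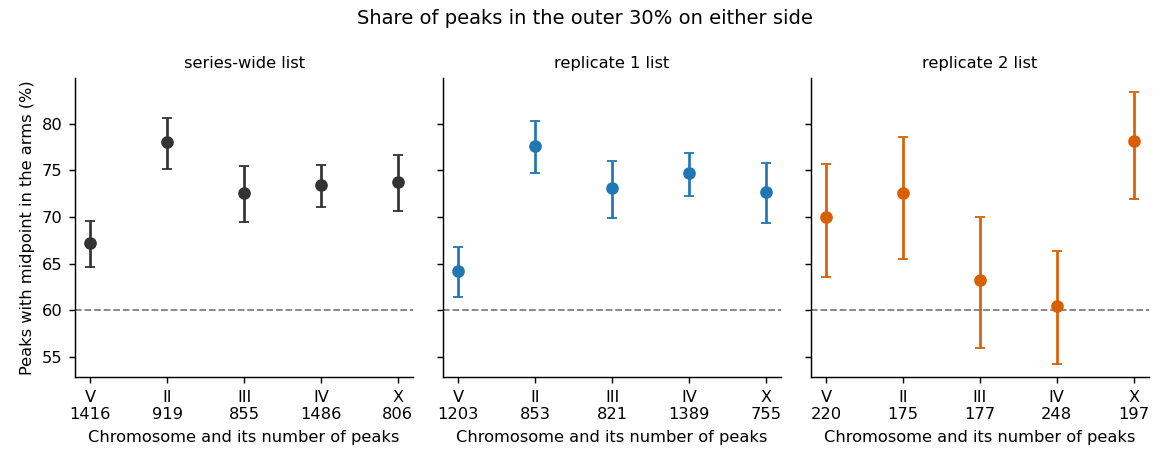
Share of peaks with their midpoint in the outer 30% on either side, for chromosomes V, II, III, IV and X in the 3 lists; points are shares, bars are Wilson 95% intervals, the dashed line is the 60% of length in the arms, and the number of peaks stands under each chromosome. V is lowest in the series-wide list (67.2%) and in replicate 1 (64.2%), and lies between the others in replicate 2 (70.0%).

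Peaks of V did not accumulate at its tips. The outer 10% on the left held 120 series-wide peaks, or 8.47% of those on V, and the outer 10% on the right held 166, or 11.7%. The left share was 15.1% on II, 12.7% on III, 17.0% on IV and 23.4% on X, each above that of V. The right share was 19.8% on II, 15.2% on III, 11.3% on IV and 12.9% on X, so that V was not the lowest at that end. On V the left end held 10.1% of the peaks in replicate 1 and 8.64% in replicate 2, and the right end held 12.4% and 9.09%. In each list these values lay near the 10% of length that each end makes up.

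Arms and center of V differed little in the size of their peaks. The median width was 276 bp in the arms (quartiles 195 and 442 bp) and 275 bp in the center (quartiles 193 and 446 bp). By chromosome the median was 276 bp on V, 292 bp on II, 273 bp on III, 290.0 bp on IV and 275 bp on X. The median score was 6.61 in the arms of V and 7.89 in its center, with 6.05 in the left arm and 7.46 in the right arm. Over the whole of V it was 7.08, against 7.46 on II, 7.40 on III and 7.89 on both IV and X. The lower score of the left arm moved with a single cluster described below: without the 2 largest clusters the medians were 7.78 in the left arm, 8.37 in the center and 7.46 in the right arm.

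Few peaks of V were seen in both replicates, as was the case over the genome. By an overlap of at least 1 bp, 129 peaks, or 9.11% (7.72% to 10.7%), met a peak of both replicates, where 10.6% of all nuclear series-wide peaks did. A further 846 (59.7%) met replicate 1 alone, against 62.0% of all, and 41 (2.90%) met replicate 2 alone, against 3.40%. The remaining 400 peaks, or 28.2% (26.0% to 30.6%), met neither list, against 24.1% of all. The neither share was 23.1% on II (20.5% to 25.9%), 22.6% on III (19.9% to 25.5%), 20.5% on IV (18.5% to 22.6%) and 23.0% on X (20.2% to 26.0%). These intervals treat peaks as independent, although many of these peaks of V shared a cluster, as given below. With reciprocal overlap of 50%, 80 peaks of V (5.65%) were in both replicates, against 6.39% of all.

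The peaks found in neither replicate were unevenly spread on V. They made up 36.2% of the peaks of the left arm, 20.5% of the center and 28.0% of the right arm. In the left arm 99 of the 170 lay in a single cluster. Without the 2 clusters with most peaks, which hold 192 peaks in 1.46% of the length, the share was 22.8% for V as a whole. It was then 21.1% in the left arm, 18.1% in the center and 28.0% in the right arm. The share for V without them lay within the range of the other 4 chromosomes, and the right arm kept a higher share than the rest of V. The 2 clusters held 30.2% of the peaks of V found in neither replicate.

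**Figure D3:**
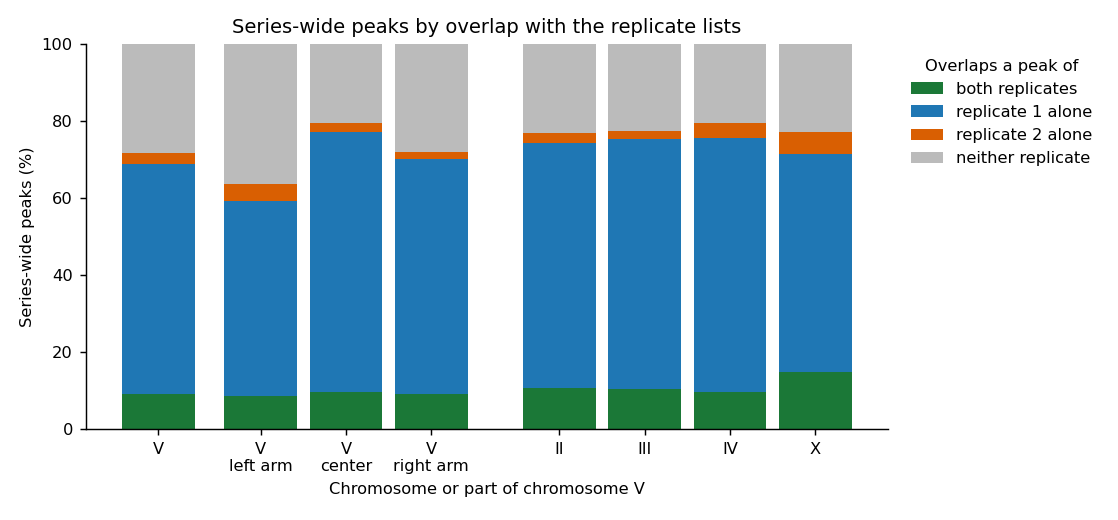
Share of series-wide peaks that overlap a peak of both replicates, of replicate 1 alone, of replicate 2 alone or of neither, for V as a whole, for its left arm, center and right arm, and for II, III, IV and X. The grey part is 28.2% on V and 36.2% in its left arm, against 20.5% to 23.1% on the other 4 chromosomes.

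Support followed score. Peaks of V found in both replicates had a median score of 33.3 and a median width of 979 bp, and those of replicate 1 alone 8.37 and 292 bp. Peaks of replicate 2 alone had 6.48 and 498 bp, and those of neither replicate 4.33 and 193 bp. With the peaks of V split by score into 10 bins of equal size, 82 of the 142 peaks in the highest bin were in both replicates, and 0 were in the 4 lowest bins. In the lowest bin 67.4% met neither list. Score and width rose together on V with a Spearman's rho of 0.65 over 1416 peaks, given without a p because the peaks share libraries. Wider peaks also meet an overlap rule more easily.

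Counted from the replicate lists, the overlap on V lay within the range of the other 4 chromosomes. Of the 220 peaks of replicate 2 on V, 165 (75.0%, 68.9% to 80.3%) overlapped a peak of replicate 1, against 81.7% on II, 87.6% on III, 72.2% on IV and 71.6% on X. Of the 1203 peaks of replicate 1, 152 (12.6%) overlapped a peak of replicate 2. Over 113 peaks of V that overlapped 1 to 1, the scores of the replicates had a rho of 0.39. It was 0.25 over the 100 pairs below the tied score of 3100, and 0.61 over 107 pairs with reciprocal overlap of 50%. For the series-wide list the rho was 0.78 with replicate 1 over 825 pairs and 0.59 with replicate 2 over 130 pairs. These lists belong to the same ChIP samples, so the latter values do not measure agreement between independent samples.

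Peaks of 1 kb or more made up 142 of the peaks on V, or 10.0%, against 9.09% of all nuclear peaks. They held 39.5% of the bases that peaks cover on V, and 64 of them (45.1%) were in both replicates, against 65 of 1274 narrower peaks (5.10%). The widest was V 7916799 to 7925006, of 8208 bp and with a score of 43.6. Replicate 2 called it as a single peak of 8206 bp with a score of 3100, and replicate 1 as 4 peaks with a highest score of 469.

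Many high peaks of V had nearly the same width, a pattern noticed in the plot of score and width and counted afterwards. A score of 30 or more was reached by 110 peaks of V, and by 8.20% of all nuclear peaks. Of these 110, 41 (37.3%) were between 1.0 and 1.3 kb wide. The same width class held 26.4% of the high peaks of the nuclear genome, with 27.2% on II, 28.8% on III, 28.8% on IV and 15.2% on X. On V the classes on either side held far fewer, with 9 peaks between 0.7 and 1.0 kb and 4 between 1.3 and 1.6 kb. The 41 peaks were dispersed, with 17 in the left arm, 8 in the center and 16 in the right arm.

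These peaks of 1.0 to 1.3 kb were mostly calls of replicate 1. Of the 41, 24 (58.5%) met a peak of replicate 1 alone, 17 (41.5%) met both replicates and 0 met replicate 2 alone. Among the other 69 high peaks of V, 55 (79.7%) met both replicates and 11 met replicate 1 alone. Their score in replicate 1 had a median of 2607, with a range of 184 to 3118. The other chromosomes showed the same direction, with both replicates meeting 28.6% to 41.2% of the class and 74.6% to 85.7% of the other high peaks.

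Some of the highest peaks of replicate 1 also met no peak of replicate 2. Replicate 1 had 20 peaks on V at 3100 or more, and 6 of them met no peak of replicate 2. Of such peaks of its whole list 25.2% met none, so this was not particular to V. Of these 6, 5 were between 1232 and 1285 bp wide. They were V 2454563 to 2455824, V 10773873 to 10775104, V 17902590 to 17903874, V 18151050 to 18152281 and V 18742578 to 18743843. Both the second and the fourth of these measured 1232 bp, and the fourth had the highest score of replicate 1 on V, 3118. The range of 1232 to 1285 bp was set from these 5 peaks of V. Among the unmatched peaks at 3100 or more elsewhere, it held 1 of 5 on II, 0 of 4 on III, 3 of 8 on IV and 1 of 4 on X. The second highest peak of replicate 1 on V, V 5073198 to 5076866, scored 3113 and met a peak of replicate 2 with a score of 1370. Replicate 2 had 14 peaks on V at 3100, and all 14 met a peak of replicate 1. The first 3 of these by position were V 264977 to 267341, V 3434571 to 3441173 and V 4333235 to 4336732. Of all its peaks on V, 165 of 220 met a peak of replicate 1, and the share at 3100 over its whole list is not given here. The list of replicate 1 is the longer one, with 1203 peaks on V, which makes a match with it easier.

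**Figure D4:**
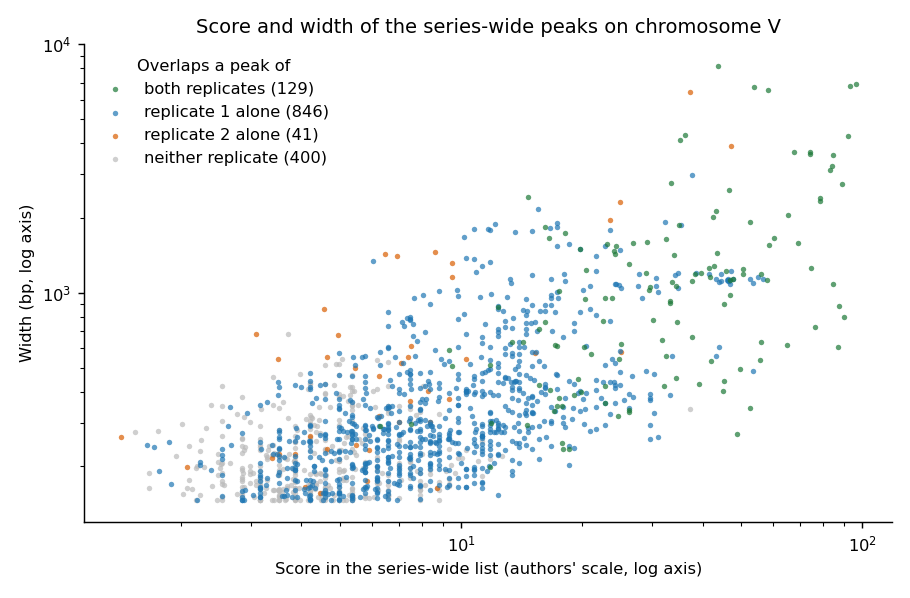
Score in the series-wide list against width for the 1416 peaks of chromosome V, both on log axes; each point is a peak, coloured by the replicate lists it overlaps. Peaks of both replicates lie at the upper right, peaks of neither at the lower left, and a band between 1.0 and 1.3 kb at scores above 30 holds 41 peaks, of which 24 are of replicate 1 alone.

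Peaks on V lay in clusters. Joining neighbours separated by at most 10 kb gave 450 groups, of which 205 were single peaks and 75 held 5 peaks or more. These 75 clusters held 755 peaks of V, or 53.3% (50.7% to 55.9%), against 47.9% of all nuclear peaks. The share was 41.7% on II, 41.4% on III, 53.6% on IV and 38.5% on X. Without its 2 clusters with most peaks V had 46.0%, below the 47.9% of all nuclear peaks, from which no cluster was left out. In the replicates' own lists V had 43.5% of its peaks in such clusters in replicate 1 and 30.5% in replicate 2. Both values lay within the range of the other 4 chromosomes, whose lowest and highest shares were 35.8% and 51.1% by replicate 1, and 22.6% and 48.0% by replicate 2. By region the share was 61.2% in the left arm, 45.5% in the center and 53.2% in the right arm. In the series-wide list the median distance between neighbours was 2.60 kb. Its longest stretch without a peak ran from V 10821202 to V 11072019, or 251 kb, centred at 52.3% of the length. In replicate 1 the longest stretch was 205 kb, from V 10866881 to V 11071989.

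The cluster with most peaks ran from V 2346647 to V 2563988 in the left arm and held 132 peaks in 217 kb. Those are 9.32% of the peaks of V. The largest cluster of the other 4 chromosomes held 49 peaks, on IV. Its edges were sharp: the 217 kb on its left held 13 peaks and the 217 kb on its right held 17. Most of its peaks were weak and called in the series-wide list only. The median score was 4.58, and 99 of the 132 (75.0%) met neither replicate, with 31 in replicate 1 alone and 2 in both. The replicate lists had 38 and 2 peaks there, for replicates 1 and 2.

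Within this cluster 3 peaks stood above the rest, at nearly equal distances. V 2346647 to 2347781 opened it with a score of 47.7, V 2454611 to 2455744 lay inside with 56.5, and V 2562868 to 2563988 closed it with 46.9. Their widths were 1135, 1134 and 1121 bp, so they belong to the class of 1.0 to 1.3 kb. The second started 107964 bp after the first, and the third 108257 bp after the second. The scores of the other 129 peaks ran from 1.67 to 15.3. The only 2 peaks of replicate 2 in the cluster were at its opening and closing peaks, with scores of 125 and 82.5.

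The peaks of this cluster overlapped each other most when shifted by about the same distance. The list was moved along itself in steps of 50 bp, from 2 kb up to 60% of the cluster's length, and the overlap was taken as a percentage of the smaller of the covered stretches compared. At a shift of 108.25 kb the overlap was 53.7% of the bases covered in the series-wide list. Over 2569 shifts the median was 17.0% and the 95th percentile 22.3%. In the list of replicate 1 the overlap also peaked at 108.25 kb, with 72.9% against a median of 5.07% and a 95th percentile of 16.0%. That list is not independent of the series-wide list. It includes peaks at the 3 high sites, and its overlap is not given without them. The greatest overlap of many shifts exceeds their median by construction, and its size was not tested. Without the 3 high peaks the series-wide overlap was greatest at 108.30 kb, with 48.8% against 15.8%. The search was made after the spacing of the high peaks had been seen. Neither the genome sequence nor input coverage was used here, so separate binding sites and copies of the same sequence, or a change in copy number in this strain, cannot be told apart in this cluster or the next. The count of its peaks is therefore a count of calls.

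A second cluster of this kind lay in the center, from V 8809387 to V 8898477, with 60 peaks in 89.1 kb. The flanks of the same length held 2 peaks on the left and 1 on the right. Its median score was 5.62 and its highest 21.7. Of its peaks 38 met replicate 1 alone, 22 met neither replicate, and replicate 2 had 0 peaks in it. Its list was moved along itself in the same way. At a shift of 42.1 kb the overlap reached 83.0% in the series-wide list, against a median of 28.7% and a 95th percentile of 40.1%. In replicate 1 it reached 88.8%, against 26.8% and 45.4%. The other clusters examined were the next 3 of V and the largest pair of each of II, III, IV and X. In these clusters and in the cluster of 60 peaks, the greatest overlap lies above the median by construction. By itself it does not show a recurrence. The distance from the median varied widely. In the cluster from V 14873558 to V 14891171 the series-wide overlap reached 75.2% at a shift of 6.4 kb, against a median of 28.3%. In that from III 7405269 to III 7453117 it reached 97.8%, against 95.8%. The clusters differ in length and in how much of them is covered, so the clusters were not ranked by these overlaps.

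The third cluster had the opposite support. From V 6071407 to V 6095741, near the inner edge of the left arm, 24 series-wide peaks lay in 24.3 kb and covered 50.5% of it. Replicate 2 had 24 peaks there and replicate 1 had 5, although the list of replicate 1 is the longer one. Of the 24 series-wide peaks 15 met replicate 2 alone, 3 both, 1 replicate 1 alone and 5 neither. The stretch from 6 to 7 Mb held 44 peaks of replicate 2 and 41 of replicate 1, where the medians per Mb along V were 8.50 and 57.5. It contained 21 of the 41 peaks of V that met replicate 2 alone. Such peaks were not confined to V: in the center of IV, 39 of 395 (9.87%) met replicate 2 alone.

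The next clusters were V 18030089 to 18069501 with 22 peaks and V 14873558 to 14891171 with 17, both in the right arm. In the cluster of 22 peaks replicate 1 had 14 peaks and replicate 2 had 1. In the cluster of 17 peaks replicate 1 had 13 and replicate 2 had 0. Among windows of 100 kb, the 5 fullest were V 8800001 to 8900000 with 60 peaks, the 3 that contain the left-arm cluster with 56, 49 and 35, and V 18000001 to 18100000 with 30. Over the 210 windows of V the median was 5.00 peaks and 4 windows were empty. The 10 fullest windows held 23.4% of the series-wide peaks of V, 16.2% of those of replicate 1 and 37.7% of those of replicate 2.

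**Figure D5:**
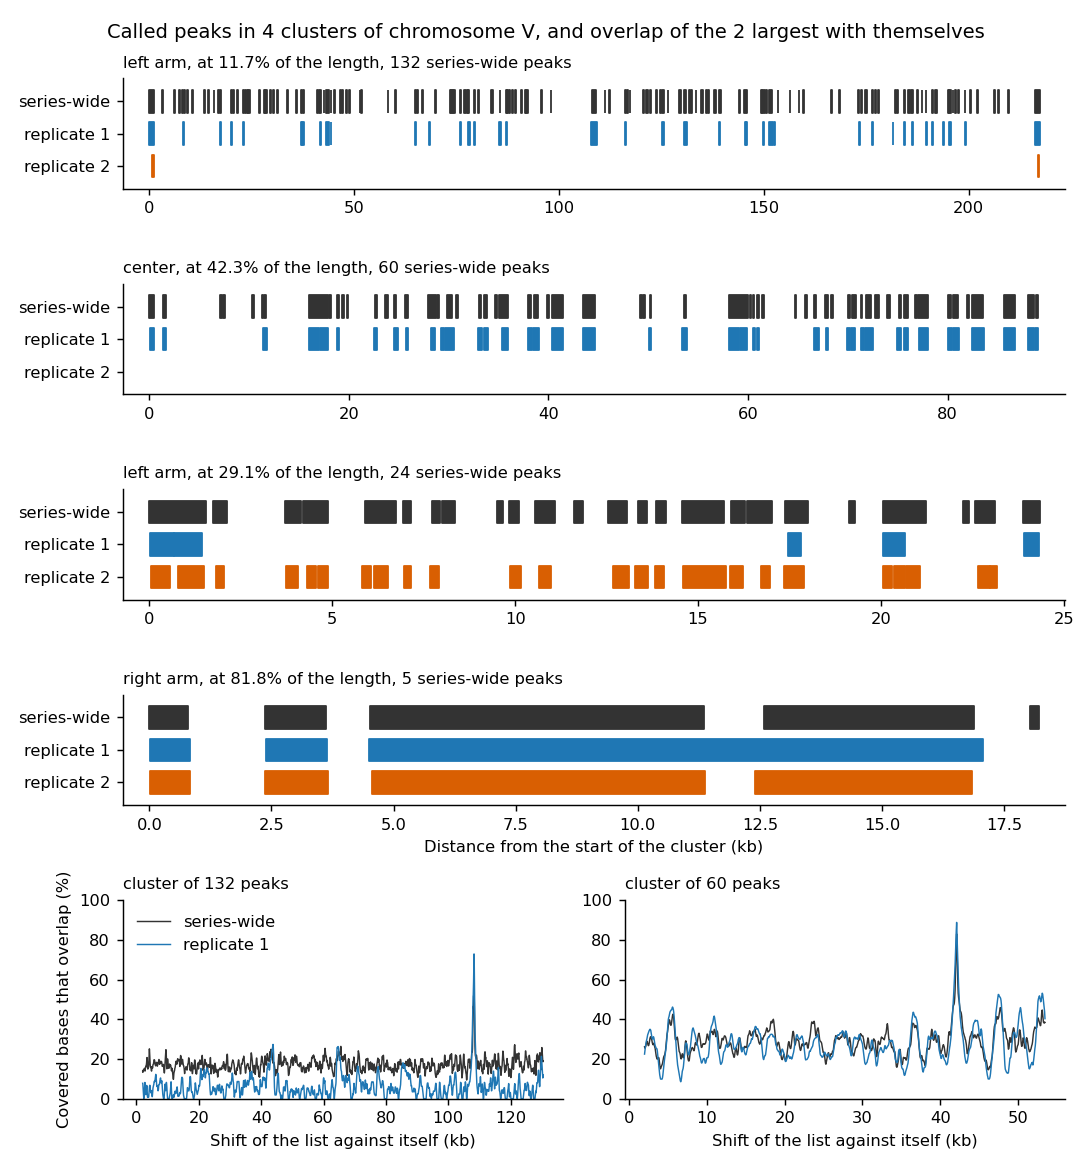
Called peaks in the 3 clusters with most peaks on V and in the right-arm group that holds 4 of the 25 highest peaks; bars are peaks of the series-wide, replicate 1 and replicate 2 lists, and the x axis is distance from the start of the cluster in kb. The lower panels show the percentage of covered bases that overlap when a list is shifted against itself, with maxima at 108.25 kb (53.7% series-wide) for the cluster of 132 peaks and at 42.1 kb (83.0%) for the cluster of 60 peaks.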

How the data were processed

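Peak lists of 2 ZIM-3 ChIP libraries and 1 list of the whole series were used. For each peak the authors deposited coordinates and a score of unnamed scale. Per the file headers, the build is WormBase WS220, and the lists name MACS or MACS v2 as caller. BWA and ce10 are named in the submitters' processing notes, with no version. The control, the filters and the way the replicates were combined are not given in the sources used here.

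Counting used pandas 2.3.3, numpy 2.4.6 and scipy 1.17.1 under Python 3.11.15, and plots used matplotlib 3.10.9. Chromosome length was the largest peak end in the 3 lists, 20924172 bp for V. Peaks were placed by midpoint. The overlap, cluster and region counts were checked on simulated peaks. Sites named are the 10 highest of V, the 3 highest of each region, the 3 widest, the 5 fullest windows and clusters and the 3 highest of each replicate. Members, comparisons and lists were chosen with earlier results of these data known. The 13 mitochondrial peaks and the input samples were left out. No p-value was computed.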

Additional observations from a re-analysis of the deposited data

How the results depend on the processing

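Of 49 alternative values, 24 stayed within the spread between the replicates, the counting interval or a factor of 1.5, and 25 moved. For arm share, width and clustered share, that spread comes from the same 2 replicate lists that are among the alternatives. The tally is therefore not a measure of robustness. Replicates' own lists gave 10.5 to 57.5 peaks per Mb (67.7 as reported), arm shares of 64.2% to 70.0% (67.2%), median widths of 303 to 401 bp (276) and clustered shares of 30.5% to 43.5% (53.3%). In the highest-scoring 10% of peaks these were 6.26 peaks per Mb, 1127 bp and 0% in clusters, with 61.1% in both replicates (9.11%). In the highest 50% they were 33.2 per Mb, 406 bp, 25.2% and 18.4%. Merging within 10 kb gave 21.5 per Mb and 62.4% in the arms. Arms of 25% held 56.1% and arms of 33% held 74.0%, by construction. Only peaks in either replicate gave a median score of 9.59 (7.08) and 40.0% in clusters. Without the 2 largest clusters, chosen after seeing the data, the score was 7.89. Gaps of 5 and 20 kb gave 42.2% and 66.7% in clusters. Reciprocal overlap of 50% gave 5.65% in both replicates and a rho of 0.61 (0.39), and midpoints within 200 bp gave 6.07%. The lower peaks per Mb after keeping only the highest scores or merging also follow from the setting. So do the direction of change with the gap and the lower share in both replicates with reciprocal overlap. Leaving out the peaks of neither replicate, whose median score was 4.33, raises the median score by construction. Keeping fewer peaks also leaves fewer neighbours within 10 kb, which bears on the clustered shares. For the other changes, the cause was not tested. Depth is unknown. Without a replicate, the score median, the share in both replicates and the rho have no value. No paired analysis was possible because all peak lists belong to the ChIP group and no list of the inputs was used here.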

Other observations

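The ends of V differed in their support. The leftmost peak, V 1 to 344, scored 52.5, ranked 36 on V and met peaks of replicate 1 (score 984) and replicate 2 (score 761). The rightmost peak, V 20923833 to 20924172, scored 37.2 and ranked 81 on V, but met neither list. It had the highest score of the 400 peaks of V found in neither replicate.

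Some peaks of the replicate lists had no series-wide counterpart on V. In replicate 1 these were 146 of 1203 (12.1%), with a median score of 62.3 and a highest score of 183, against a median of 162 for its other peaks of V. They were spread evenly, with 48 in the left arm, 49 in the center and 49 in the right arm. In replicate 2 they were 4 of 220, with a median score of 59.6 against 157 for the rest. In each list 0 of them met a peak of the other replicate by 1 bp. In replicate 1, 87.9% of the peaks of V had a series-wide counterpart, against 82.5% to 88.5% on II, III, IV and X. In replicate 2, 98.2% had one, against 94.4% to 97.7%.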
